A study of Mus musculus with 2 samples.

Results

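Accessible internal promoters of protein-coding genes were examined in the left cerebral cortex of the mouse. These are stretches of open chromatin at annotated transcript starts that lie deep inside a gene rather than at its outermost start. Transcription was not measured, so promoter here means an annotated start with such open chromatin. A region was taken when an autosomal peak of the stricter peak list of 1 library overlapped a stricter peak of the other library by at least 1 bp, and its midpoint lay within 500 bp of an internal start. An internal start was a transcript start of a protein-coding gene in GENCODE M21 that lay 10 kb or more downstream of that gene's 5'-most start. Peaks within 2 kb of the 5'-most start of any other gene were left out. The rule took 994 peaks in replicate 1 and 970 in replicate 2, which were 3.29% of 30248 and 3.22% of 30106 autosomal peaks shared by both libraries. The full stricter lists held 40705 and 39508 peaks. Member peaks that overlapped were joined into 919 loci in 738 host genes, and 895 loci had a member peak in both libraries.

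The data came from DNase-seq, an assay in which the enzyme DNase I cuts nuclear DNA where it is not protected by nucleosomes. Both libraries were made from left cerebral cortex of male postnatal B6CASTF1/J mice aged 8 to 10 months. They were labelled as biological replicates 1 and 2 and form 1 group, with no second condition. The labels give a single donor for both replicates but list 2 biosamples, so they do not say whether separate animals were used, and the spread between replicates may be smaller than that between animals. B6CASTF1/J is a hybrid strain, and the deposited files do not separate its alleles. Peak strength below is the signal value the authors gave each peak, and its normalization is not given in the sources used here. With 2 libraries an exact two-sided test cannot give a p below 0.5, so no p-values are reported. Values are given for each library, or as a mean with the SD over the libraries (n = 2).

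Many mammalian genes have more than 1 promoter, and the choice among them decides which first exon a transcript carries. A promoter inside the gene can leave out the upstream coding exons and so give a shorter protein or it can change only the untranslated leader. Brain genes with very long introns are known for such internal promoters. Promoters in vertebrates divide broadly into those in CpG islands, which are rich in CG dinucleotides and bound by factors such as Sp1 and NRF1, and those poor in CG, which tend to be used in fewer tissues. A footprint is a short run of bases inside an accessible site that is cut less than its surroundings, as a bound protein leaves it.

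The 200 bases just upstream of 3 of the strongest loci show what footprinted DNA at such a start looks like. All sequences here were read from the GRCm38.p6 reference genome (mm10 coordinates) on the sense strand of the gene, 5' to 3', and end at the base before the most upstream internal start of the locus. Capitals mark bases inside a deposited footprint in both libraries. The stretches lie at chr14:21500653-21500852 on the plus strand (Kat6b, a histone acetyltransferase), chr1:92180342-92180541 on the minus strand (Hdac4, a class IIa histone deacetylase) and chr5:115652987-115653186 on the minus strand (Bicdl1, an adaptor that links cargo to dynein). None of these bases is in an annotated exon.
Kat6b: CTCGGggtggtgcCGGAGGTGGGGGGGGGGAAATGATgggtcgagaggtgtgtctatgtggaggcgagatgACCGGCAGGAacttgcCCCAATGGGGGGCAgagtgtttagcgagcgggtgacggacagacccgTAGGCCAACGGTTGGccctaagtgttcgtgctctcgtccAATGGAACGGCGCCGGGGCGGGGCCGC
Hdac4: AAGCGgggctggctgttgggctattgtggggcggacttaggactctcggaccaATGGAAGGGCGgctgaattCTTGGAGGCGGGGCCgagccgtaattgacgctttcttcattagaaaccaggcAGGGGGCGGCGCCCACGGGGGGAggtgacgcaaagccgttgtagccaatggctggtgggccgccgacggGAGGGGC
Bicdl1: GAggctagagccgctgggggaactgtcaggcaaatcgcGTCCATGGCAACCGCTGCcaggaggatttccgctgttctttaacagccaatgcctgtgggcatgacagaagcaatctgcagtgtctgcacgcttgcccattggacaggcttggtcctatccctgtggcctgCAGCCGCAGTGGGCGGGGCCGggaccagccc

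In the Kat6b stretch 95 of 200 bases were footprinted in both libraries, and the footprints held a GC box (GGGCGG, the core letters bound by Sp1) and, farther upstream, a CCAAT box. In the Hdac4 stretch 61 bases were footprinted, again with a GC box. In the Bicdl1 stretch 41 bases were footprinted, and they held a GC box near the start and the letters GTTGCCATG, a form of the RFX factor site, on the opposite strand. Only 106 of the 200 bases lie in the Bicdl1 peak of either library, and the GC box lies downstream of the peak's edge, outside it. These are letter matches inside deposited footprints and do not identify the protein.

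The next 4 stretches come from genes known for alternative promoters. Nrxn3, a presynaptic adhesion protein, is shown at chr12:89812283-89812482 (plus). Macf1, a giant linker of microtubules and actin, is shown at chr4:123412229-123412428 (minus). Pde4d, a cAMP phosphodiesterase, is shown at chr13:109926644-109926843 (plus), and Mest, an imprinted gene expressed from the paternal copy, at chr6:30737850-30738049 (plus).
Nrxn3: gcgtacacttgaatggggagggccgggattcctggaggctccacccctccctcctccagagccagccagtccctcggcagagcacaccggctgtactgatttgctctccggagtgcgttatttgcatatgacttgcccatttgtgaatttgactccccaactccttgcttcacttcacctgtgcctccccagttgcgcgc
Macf1: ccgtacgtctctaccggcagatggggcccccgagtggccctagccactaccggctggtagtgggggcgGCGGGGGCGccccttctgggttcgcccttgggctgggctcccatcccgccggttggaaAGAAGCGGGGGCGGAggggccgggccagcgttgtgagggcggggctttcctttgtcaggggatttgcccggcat
Pde4d: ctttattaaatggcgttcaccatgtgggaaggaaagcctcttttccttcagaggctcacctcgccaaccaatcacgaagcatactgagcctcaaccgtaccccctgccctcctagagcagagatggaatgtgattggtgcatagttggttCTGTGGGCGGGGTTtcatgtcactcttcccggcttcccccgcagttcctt
Mest: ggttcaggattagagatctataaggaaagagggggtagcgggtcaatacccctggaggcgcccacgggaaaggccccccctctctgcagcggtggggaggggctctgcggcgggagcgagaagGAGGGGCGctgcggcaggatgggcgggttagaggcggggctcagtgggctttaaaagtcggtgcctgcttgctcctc

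The Nrxn3 stretch lay wholly within the peak of both libraries, yet no base of it was footprinted in both. In Macf1 the 24 footprinted bases held a GC box and the EGR letters GCGGGGGCG. In Pde4d the 14 footprinted bases held a GC box, and in Mest 8 bases were footprinted.

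Internal starts were seldom accessible. Starts of 1 gene within 500 bp of each other were grouped into start regions. Of 17299 internal start regions that met the distance rules, 835 held a peak shared by both libraries (4.83%). Among the 7148 genes with such a start region, 737 had a member locus (10.3%). By contrast, 2979 of 5061 isolated 5'-most starts of the same genes held a shared peak (58.9%). Genes with more annotated internal start regions had a locus more often. The share was 4.18% of 3015 genes with 1 region, 7.91% of 1695 genes with 2, 16.5% of 1914 genes with 3 to 5 and 30.7% of 524 genes with 6 or more. Of the host genes 593 had 1 locus, 114 had 2, 27 had 3, 3 had 4 and 1 had 6.

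The accessible share of internal starts differed with their sequence and their annotation. A start region was called CpG-rich when the 300 bp at its centre had a GC content of at least 50% and a ratio of observed to expected CG of at least 0.6. Of 779 CpG-rich internal start regions 48.5% held a shared peak, against 2.77% of 16520 others. Transcripts of the GENCODE basic set, its representative subset, started at 2717 regions, of which 19.7% held a shared peak, against 2.06% of 14582 regions without one. In combination the classes spread further apart. A shared peak was found at 66.7% of 480 regions that were both CpG-rich and basic, 19.4% of 299 that were only CpG-rich, 9.61% of 2237 that were only basic and 1.69% of 14283 that were neither. Starts that lay in an exon of a transcript from far upstream were accessible in 1.18% of 6685 cases, against 7.12% of 10614 outside such exons. Of 2787 regions whose starts were all tagged as incomplete by the annotation, 1.15% held a shared peak. Of 1274 regions within 500 bp of the start that RefSeq gives for the gene, 28.7% held a shared peak, against 2.48% of 12619 other regions of genes with a RefSeq start.

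**Figure D1:**
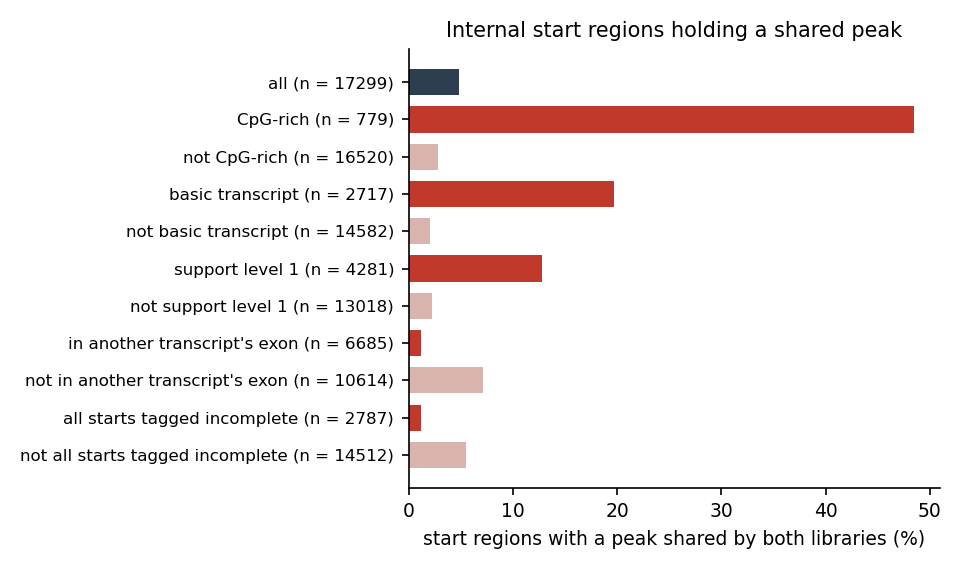
Share of internal start regions (horizontal axis, percent) that held a peak shared by both libraries, for all 17299 regions (dark bar) and for regions with (red) and without (pale) each property. CpG-rich regions reached 48.5%, the highest of the classes drawn, while regions in another transcript's exon stood at 1.18% and those with only incomplete starts at 1.15%. The bars are counts over start regions and carry no replicate error.

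The loci lay far into their genes. The median distance from the 5'-most start was 44.8 kb, the nearest lay at 10.01 kb and the farthest at 2857 kb. In all, 248 loci lay 100 kb or more downstream and 229 within 10 to 20 kb. The median length of the host gene, taken over loci, was 107 kb. The internal start lay in an intron of the upstream transcripts at 822 loci, in an exon at 86 and beyond the end of those transcripts at 11. Just inside the distance limit stood Fpgs at 10.01 kb, with strengths of 3.79 and 2.39 in replicates 1 and 2, and Slc3a2 at 10.014 kb, with 1.81 and 1.86. Just outside stood a pair of Cc2d2a peaks at 9.943 kb, with 2.05 and 1.46 at one and 1.01 and 1.07 at the other.

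Whether these loci were alternative to another promoter was checked with the GENCODE basic transcripts. At 363 loci (39.5%) at least 50% of the gene's basic transcripts started at the locus, and these are called main starts here. At 245 loci (26.7%) a minority of them did, and at 311 (33.8%) none did. A transcript encoding the gene's longest protein started at 329 loci. Main starts made up 33 of the strongest 50 loci, 60 of the strongest 100 and 111 of the strongest 200. At a main start the locus was thus internal with respect to at most 50% of the gene's basic transcripts, and transcripts outside the basic set were not counted.

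The 3 classes differed in strength and sequence. Median strength was 1.76 and 1.61 at main starts in replicates 1 and 2, 1.41 and 1.37 at minority starts, and 1.35 and 1.28 where no basic transcript started. The order was the same in both libraries. CpG-rich windows were found at 69.7% of main starts, 46.5% of minority starts and 21.5% of starts with no basic transcript. Minority starts lay deepest, at a median of 74.1 kb, against 30.6 kb for main starts and 46.4 kb for the rest. Among loci of genes with a RefSeq start, that start lay within 500 bp at 88.8% of main starts, 68.0% of minority starts and 6.37% of starts with no basic transcript. Annotation in both sources draws on the same transcripts, so these shares are not independent of each other.

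Internal loci stood between 5'-most promoters and intronic sites in strength. Median strength was 1.50 in replicate 1 and 1.42 in replicate 2 (mean 1.46 ± 0.057, SD, n = 2). At 6878 loci at isolated 5'-most starts it was 2.42 and 2.12 (2.27 ± 0.21, SD, n = 2). At 2382 deep intronic loci, shared peaks in introns 10 kb or more from any annotated start, it was 1.17 and 1.04 (1.10 ± 0.091, SD, n = 2). The internal loci were therefore weaker than 5'-most loci and stronger than deep intronic loci in both libraries, by more than the spread between libraries. Internal strengths ran from 0.417 to 8.53 in replicate 1 and from 0.361 to 8.31 in replicate 2.

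Base composition followed the same order. Median GC content of the peak was 60.6% and 60.3% at internal loci, 65.4% and 65.0% at 5'-most loci, and 52.2% and 52.5% at deep intronic loci. The median ratio of observed to expected CG was 0.586, 0.826 and 0.256 in that order. Of the internal loci 434 (47.2%) were CpG-rich, against 85.1% of 5'-most loci and 2.10% of deep intronic loci. The internal loci were spread over the whole range of CG content between the other sets. CpG-rich members had a median strength of 1.88 and 1.75 in the libraries, and the other 485 had 1.24 and 1.21.

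**Figure D2:**
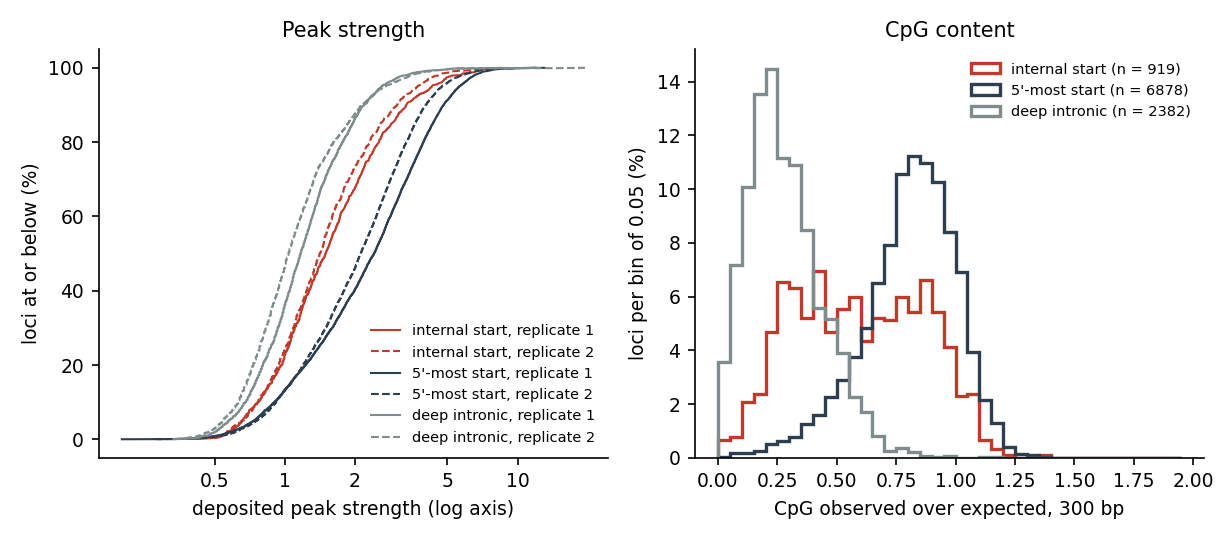
Left, cumulative share of loci (vertical axis, percent) by deposited peak strength (log axis) for internal, 5'-most and deep intronic loci, with replicate 1 solid and replicate 2 dashed. Right, share of loci by the ratio of observed to expected CG in 300 bp. The internal curve lies between the others, and its CG ratios spread around a median of 0.586.

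Replicates agreed closely at these loci. Across the 919 loci the Pearson r of log2 strength between libraries was 0.934 and the Spearman rho 0.928, against an r of 0.953 at 5'-most and 0.867 at deep intronic loci. These are descriptions over loci that were required to be peaks in both libraries. The median absolute difference between libraries was 0.19 on the log2 scale. Only 1 member differed by more than 2-fold. This was the Pde4d locus printed above (chr13:109926581-109926920), with a strength of 2.19 in replicate 1 and 1.06 in replicate 2.

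Accessible bases were centred just upstream of the internal starts. The authors deposited FDR values for short intervals, and a base was counted as accessible where this was 0.001 or less. Within 20 bp bins around the annotated start, the share of accessible bases at internal loci was highest at -30 bp, at 75.4% in replicate 1 and 76.0% in replicate 2. At 5'-most loci it reached 89.5% and 89.7%, in the bins next to the start. Peaks with a midpoint within 500 bp of a start were required by the rule. The height of the profile and its centring near the start follow in part from this and are descriptions. The sets differed most downstream. From 200 to 500 bp past the start 33.2% and 35.7% of bases were accessible at internal loci, against 53.8% and 57.6% at 5'-most loci, while from 500 to 200 bp upstream the shares were 31.0% and 33.0% against 37.0% and 40.1%. Footprinted bases were most frequent at -10 bp in both sets, at 15.2% and 15.9% at internal and 24.6% and 24.1% at 5'-most starts.

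**Figure D3:**
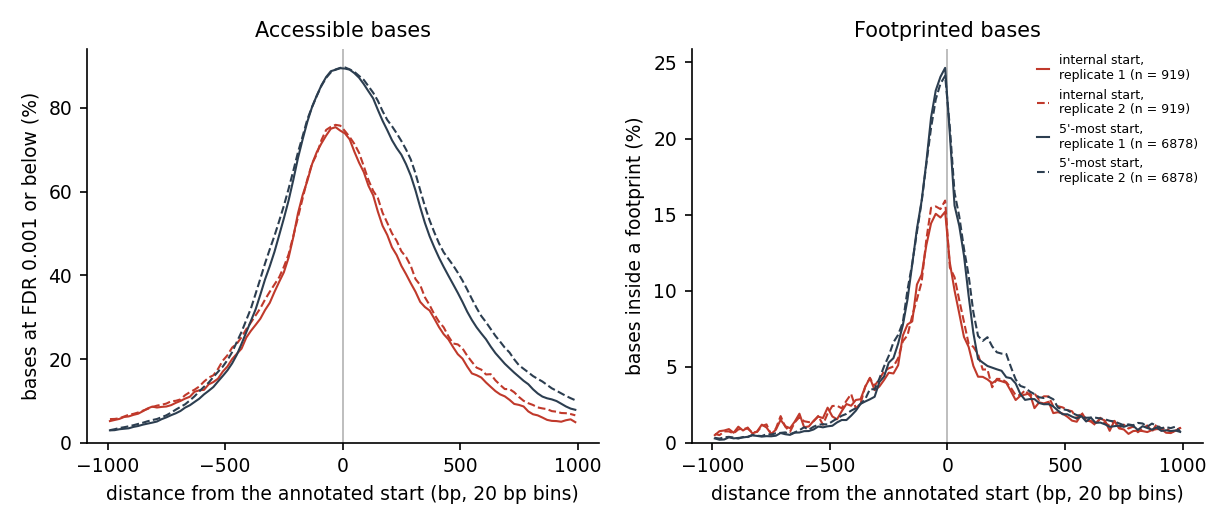
Share of bases (vertical axes, percent) that were accessible at an FDR of 0.001 or less (left) or inside a footprint (right), by distance from the annotated start in bp, oriented with transcription to the right. Red lines are 919 internal loci and dark lines 6878 loci at 5'-most starts, solid for replicate 1 and dashed for replicate 2; the internal profile is lower at the start and downstream of it, and slightly higher far upstream, at 5.20% and 5.67% accessible bases against 2.98% and 3.03% at -990 bp.

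Most internal loci held a footprint. At least 1 footprint overlapped the peak at 92.3% and 92.9% of internal loci in replicates 1 and 2, at 93.8% and 94.4% of 5'-most loci and at 95.5% and 92.9% of deep intronic loci. Internal peaks carried 1.30 and 1.28 footprints per 100 bp and 5'-most peaks 1.50 and 1.45. Footprint number and peak strength move together, and among peaks with a strength between 1 and 2 the values were 1.16 and 1.18 for internal and 1.17 and 1.20 for 5'-most peaks. Deep intronic peaks of that strength had 1.26 and 1.30. At like strength the density was thus close to that of 5'-most peaks and below that of deep intronic peaks in both libraries. A footprint was found at 94.0% and 95.1% of internal, 93.5% and 95.9% of 5'-most and 99.5% and 98.5% of deep intronic peaks of that strength. The GC content still differed, with medians of 59.9% and 59.8% at internal against 66.7% and 65.6% at 5'-most peaks.

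Short motifs separated the sets in a similar way. They were searched on both strands of the 300 bp at the centre of each locus, and a match is a description of the letters. The GC box was in 44.9% of internal windows, 69.8% of 5'-most windows and 10.1% of deep intronic windows. The ETS letters CCGGAAG were in 6.31%, 17.2% and 2.31% of windows in the same order. The NRF1 letters GCGCATGCG, typical of CpG island promoters, were in 2.29%, 3.88% and 0.462%. The YY1 letters AAGATGGCG were in 1.41%, 3.56% and 0.378%. Letters common in distal regulatory sites ran the other way. The AP-1 letters TGANTCA were in 8.16% of internal, 3.14% of 5'-most and 13.5% of deep intronic windows, and the E-box CAGNTG, a site of neuronal bHLH factors, in 56.7%, 43.1% and 67.8%. The TATA box TATAAA was in 3.92% of internal, 3.43% of 5'-most and 10.5% of deep intronic windows, so it was most frequent away from starts. The CCAAT box was in 30.6%, 35.3% and 30.6% in that order. The EGR letters were in 5.11%, 5.95% and 0.168%, and the CTCF core AGGGGGCGC in 3.16%, 2.97% and 3.53%.

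Much of this moved with CG content. Among the 434 CpG-rich members 71.9% held a GC box, close to the 74.8% of CpG-rich 5'-most windows. Among the 485 members that were not CpG-rich the share was 20.8%, against 41.2% of 1027 such 5'-most windows. The E-box was in 43.8% of CpG-rich and 68.2% of other members. ETS letters remained less frequent in members than in 5'-most windows in each class, at 10.6% against 18.9% in CpG-rich windows and 2.47% against 7.50% in the others.

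Motif matches differed in how often they fell inside a footprint of both libraries. In the member windows 6.91% of bases were footprinted in both. A run of 9 bases lay wholly inside such a footprint 2.67% of the time and a run of 6 bases 4.00% of the time. Against this, 22 of 29 matches to the CTCF core did (75.9%). The RFX letters did so in 6 of 11 matches (54.5%), the CRE TGACGTCA in 7 of 19 (36.8%) and NRF1 in 8 of 22 (36.4%). The GC box was footprinted in 133 of 811 matches (16.4%). ETS letters were footprinted in 1 of 71 matches, AP-1 letters in 0 of 85 and the E-box in 46 of 797 (5.77%). At 5'-most starts CTCF matches were footprinted in 111 of 208 cases (53.4%) and NRF1 matches in 192 of 285 (67.4%), with 4.21% for any run of 9 bases.

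Members with a footprinted CTCF core were mostly at starts without a basic transcript. CTCF is the DNA-binding factor that shapes chromosome loops. Of the 22 such loci 16 carried no basic transcript and 4 were main starts, against 33.8% and 39.5% of all 919 members. Among the 8 loci with a footprinted NRF1 site, 1 carried no basic transcript and 5 were main starts, and among the 7 with a footprinted CRE the counts were 1 and 5. For the 6 loci with footprinted RFX letters they were 3 and 3. All these groups are small. The strongest CTCF locus was in Spaca6, with strengths of 5.02 and 4.24 in replicates 1 and 2, and Ubtf, the RNA polymerase I transcription factor, had 4.74 and 3.52. The CRE loci, whose letters are bound by CREB, included Dusp1, an activity-induced phosphatase of MAP kinases, with 3.97 and 3.56. Another was in Prkcz, which encodes the atypical protein kinase C zeta and is known to make the brain form PKM zeta from an internal promoter, with 1.88 and 1.79. Its longest protein from the internal start had 409 residues, against 592 from upstream. The RFX loci included Shank3, with 1.99 and 1.76, and Rbfox2, a splicing factor, with 1.75 and 1.42. These genes were named after their values were seen.

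The 10 strongest members were taken by the worse of their strength ranks in the libraries. Bicdl1 led with strengths of 8.19 in replicate 1 and 7.78 in replicate 2, against 0.862 and 0.981 at its 5'-most start. Its internal start lies 78.6 kb downstream, and 2 of the gene's 3 basic transcripts begin there. Aktip, which encodes an AKT-interacting vesicle trafficking protein, had 8.53 and 6.77. Zmynd8, a reader of acetylated histones, had 7.10 and 8.31. Aktip had the highest value of any member in replicate 1, and Zmynd8 had the highest in replicate 2.

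Glo1, the glyoxalase that detoxifies methylglyoxal, had strengths of 7.39 and 6.78. Kat6b had 7.06 and 6.45 at the locus printed above, and Stag1, a cohesin subunit, had 7.16 and 6.41. Rbpj, the DNA-binding partner of Notch, had 6.83 and 5.76. Xrcc6, which encodes the Ku70 protein of DNA end joining, had 6.66 and 5.40, and Hdac4 had 6.57 and 5.17. None of these genes, nor Aktip or Zmynd8, had a shared peak within 500 bp of its 5'-most start. Chd8, a chromatin remodeller, was different. It had 6.81 and 6.27 at the internal start and 5.27 and 3.81 at the 5'-most start, so both of its peaks were strong. No basic transcript started at the internal one, and use of that start was not tested. Of these 10 loci 6 were main starts (Bicdl1, Glo1, Aktip, Stag1, Rbpj and Hdac4) and 4 were not (Zmynd8, Kat6b, Chd8 and Xrcc6).

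Within genes that had both, the internal peak was usually the weaker. In 368 host genes a shared peak was found at the internal and at the 5'-most start. The strongest shared peak within 500 bp of the 5'-most start was taken. Unlike the internal loci, it could lie within 2 kb of another gene's 5'-most start. Where a gene held several loci, their differences were averaged. The median over genes of the log2 strength, internal minus 5'-most, was -0.47 in replicate 1 and -0.40 in replicate 2 (mean -0.43 ± 0.050, SD, n = 2). The lower quartile over genes was -1.21 and -1.17 and the upper quartile 0.29 and 0.24, so genes varied widely in both directions. Of 455 such loci 280 were weaker than the 5'-most peak in both libraries and 129 stronger in both. In both libraries 127 were more than 2-fold weaker and 38 more than 2-fold stronger. The median difference was -0.25 and -0.16 at CpG-rich members and -0.70 and -0.57 at the others. It was -0.29 and -0.29 at main starts, -0.58 and -0.29 at minority starts and -0.64 and -0.54 where no basic transcript started, so main and minority starts differed in replicate 1 but not in replicate 2.

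At the upper extreme stood genes whose internal start far exceeded the outer one. After Bicdl1, at 3.25 and 2.99 on the log2 scale, came Pwp1, a nuclear WD repeat protein, with strengths of 3.56 and 3.13 at the internal and 0.796 and 0.491 at the 5'-most start. Prune2 had 1.77 and 1.61 against 0.474 and 0.417. Its internal start lay 181 kb downstream and encodes 323 residues at most, against 3084 from upstream. Rreb1, a zinc finger factor of Ras-responsive elements, had 2.38 and 2.48 against 0.597 and 0.750. Dpp6, an auxiliary subunit of Kv4 potassium channels, had 1.41 and 1.65 against 0.436 and 0.417. These genes were chosen for this difference, so its direction is a description.

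At the lower extreme the peak at the outer start was far stronger. Trpm8, the cold-sensing channel, had strengths of 0.929 and 0.926 at the internal start. The peak within 500 bp of its 5'-most start had 17.8 and 12.1. In replicate 1 this is above the highest value of the isolated 5'-most loci, 11.95. The peak therefore lies within 2 kb of another gene's 5'-most start and cannot be assigned to Trpm8 alone. Acin1, a splicing-associated protein, had 1.59 and 1.55 against 11.7 and 11.2, although 6 of its 8 basic transcripts start at the internal locus. Tecr, the last enzyme of the fatty acid elongation cycle, had 0.644 and 0.509 against 5.74 and 4.34. Kntc1, a kinetochore protein, had 0.815 and 0.676 against 6.20 and 5.06. Hdlbp, the RNA-binding protein vigilin, had 0.749 and 0.713 against 5.22 and 4.63. The internal peaks of these genes were among the weaker members, and Acin1 was the exception.

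**Figure D4:**
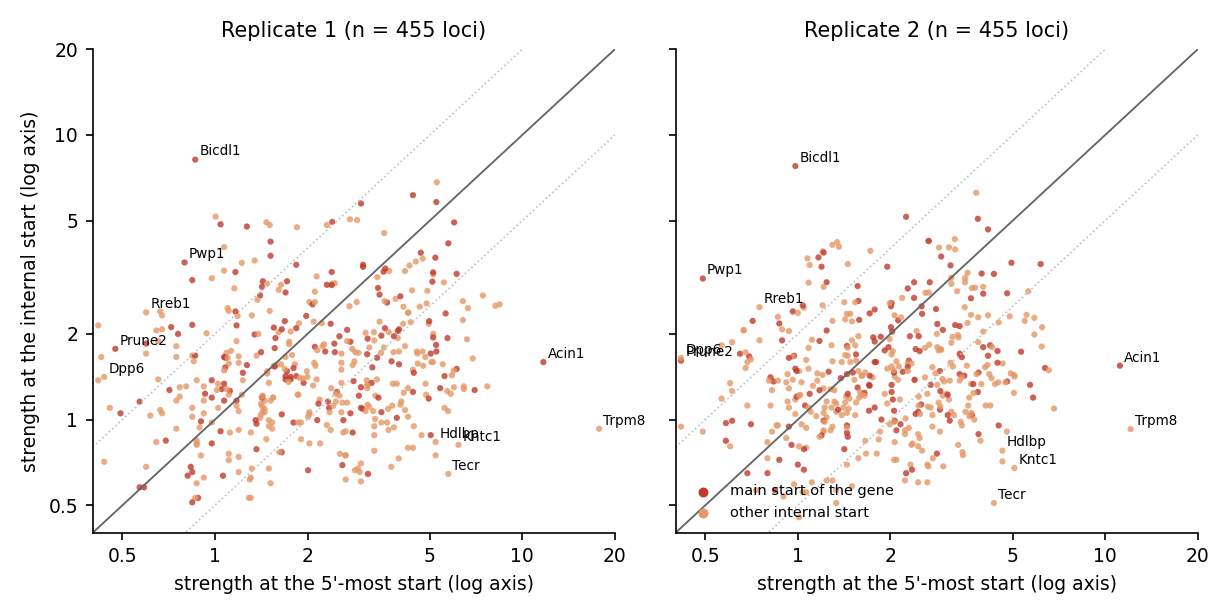
Deposited peak strength at the internal start (vertical log axis) against that at the 5'-most start of the same gene (horizontal log axis) for the 455 loci with shared peaks at both, in each replicate. Dark red points are main starts and orange points other internal starts; the solid line marks equal strength and dotted lines a 2-fold difference, and 280 loci lie below the solid line in both libraries. Bicdl1 stands farthest above the line and Trpm8 farthest below, where the 5'-most peak of Trpm8 also lies near another gene's 5'-most start.

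In the other host genes the outer start was not called. Of 738 host genes 370 (50.1%) had no shared stricter peak within 500 bp of the 5'-most start. A missing outer peak was also common over all genes with an internal start region. Of their 5061 isolated 5'-most starts, 2979 held a shared peak (58.9%), while the host genes were not limited to isolated starts. In 64 of the 370 the broader lists held a shared peak at the 5'-most start. In 36 a shared stricter peak lay at another start upstream of the locus. In 157 of the 370 the 5'-most start came only from transcripts outside the basic set, against 80 of the 368 genes with a peak at both. A missing peak says that none was called in both libraries and does not show closed chromatin. By class, no shared 5'-most peak was found for 57.9% of main starts, 46.1% of minority starts and 45.3% of starts with no basic transcript.

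The internal starts also differed in what they would encode. A coding transcript was called complete when the annotation did not tag its coding start as missing. Transcripts cut off farther downstream were not left out, so some protein lengths given in this report may be those of partial models. At 346 loci (37.6%) a complete coding transcript began that used its own start codon, downstream of the outermost one. At 196 (21.3%) the transcripts used the same start codon as a transcript from upstream. A shared start codon does not give the same annotated length. In Stag1 the longest form from the internal start had 1258 residues against 50 from upstream, and whether the shorter model is partial was not checked. At 251 (27.3%) no complete coding transcript started, at 79 (8.60%) none started upstream, and at 47 (5.11%) the internal transcripts used their own start codon upstream of the others'. In the class with an own downstream codon, the longest protein from the internal start had a median of 87.9% of the length of the longest from upstream. It was under 50% at 79 loci and at least 90% at 166. Strength differed little between the class with an own codon, at 1.47 and 1.41, and the class with a shared codon, at 1.51 and 1.43. It was highest, at 2.10 and 1.96, where no complete coding transcript started upstream, and 82.3% of those loci were CpG-rich. Loci with their own codon upstream had 1.76 and 1.76. It was lowest, at 1.38 and 1.25, where no complete coding transcript started, and only 19.1% of those loci were CpG-rich.

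Several genes held more than 1 internal locus. Neighbouring loci can share an annotated start, so these are counts of loci and not of separate promoters. Pde4d held 6, spread from 666 to 1477 kb past its 5'-most start. The strength at 5 of them was between 0.701 and 0.815 in replicate 1 and between 0.556 and 1.04 in replicate 2. The sixth, at chr13:109926581-109926920, was higher in replicate 1 (2.19) than the others and close to them in replicate 2 (1.06). It starts a form of 517 residues, against 803 for the longest form from upstream. Of the weaker loci, those at chr13:109116072-109116820 and chr13:109116938-109117220 are neighbours that share an annotated start. Genes of the Pde4 family are known for long and short enzymes made from separate promoters, which differ in the regulatory regions they carry.

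Cic, the repressor capicua, held 4 loci between 10.7 and 14.5 kb past its 5'-most start. Their strengths ran from 1.94 to 3.29 in replicate 1 and from 1.80 to 2.93 in replicate 2, against 5.13 and 4.01 at the 5'-most start. A locus there at chr7:25281821-25282280 (3.29 and 2.77) starts a form of 1604 residues, against 2510 from upstream. Its neighbour at chr7:25282301-25282400 shares annotated starts with it. Cacnb2, a beta subunit of voltage-gated calcium channels, held 4 weak loci with strengths of 0.569 to 0.654 in replicate 1 and 0.583 to 0.768 in replicate 2. They lay side by side in a stretch from 14873793 to 14874911 on chromosome 2. Ppp2r3d, a regulatory subunit of protein phosphatase 2A, held 4, of which the strongest had 6.52 and 4.57 and the weakest 0.739 and 0.435. All 4 lay beyond the end of the upstream transcripts and so not inside them. The gene's 1 basic transcript started at the strongest locus. Cdk14, a cyclin-dependent kinase, was 1 of 27 genes that held 3, with strengths of 0.692 to 0.796 and of 0.778 to 1.17.

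Genes with textbook alternative promoters were examined through 6 lists of 115 genes. Of the 102 with an internal start region, 44 had a member locus (43.1%), against 10.3% of all such genes, and these 44 held 73 loci. The listed genes have many annotated starts, with 504 start regions in 102 genes, and the accessible share rises with the number of regions, as given above. The lists were made with earlier results of these data known. The listed loci lay deep, at a median of 250 kb against 44.8 kb for all members, and 51 of 73 lay at least 100 kb downstream. An own downstream start codon was found at 51 of 73, against 346 of all 919 members. Median strength was 1.21 and 1.24, below the 1.50 and 1.42 of all members. Of the 40 listed loci with a shared 5'-most peak 23 were weaker than it in both libraries, 12 stronger and 5 mixed.

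Synaptic and adhesion genes had a locus in 12 of 20 genes, with 22 loci at a median of 551 kb. In Nrxn3 the internal locus at 1090 kb had strengths of 1.81 and 1.57 against 2.24 and 2.34 at the 5'-most start, and its longest protein had 567 residues against 1571. Nrxn2 had no member locus, with 3.44 and 2.76 at its 5'-most start and a shared peak of 1.08 and 1.19 at an internal start in the broader lists.

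Opcml, a GPI-anchored adhesion protein of the IgLON family, had a locus 613 kb downstream with strengths of 2.93 and 2.43, against 1.42 and 1.78 at its 5'-most start. Its relative Ntm had 1.37 and 1.48 at 551 kb against 0.976 and 0.991. Lsamp, also an IgLON, went the other way, with 1.21 and 1.04 at 1549 kb against 2.94 and 3.07. A further Opcml locus had 1.19 and 1.10, below the 5'-most value. In these 3 IgLON genes the strongest internal locus thus exceeded the 5'-most peak in Opcml and Ntm and fell below it in Lsamp, in both libraries. Shank3, a postsynaptic scaffold, held a locus with 2.21 and 2.51 and another with 1.99 and 1.76, and no shared peak at its 5'-most start. Its relative Shank2 held 3, from 1.17 to 1.89 in replicate 1 and 1.02 to 1.62 in replicate 2, also without a shared 5'-most peak. Rims2, a scaffold of the presynaptic active zone, held 2, the farther with 1.05 and 1.35 and the nearer with 1.17 and 0.963. Its 5'-most start had 0.919 and 1.03, so the nearer locus changed its order between libraries.

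Genes of kinases, phosphodiesterases and GTPase regulators had a locus in 10 of 18, with 17 loci. Dclk1 had strengths of 2.98 and 2.89 at an internal start 220 kb downstream, against 2.31 and 2.28. Transcripts from there encode at most 452 residues against 756, and 7 of 10 basic transcripts start there. The gene is known for a short kinase form that lacks the doublecortin domains. Kalrn, a guanine nucleotide exchange factor of dendritic spines, held a locus at 311 kb with 1.58 and 1.69, where a form of 1022 residues starts, against 2964 from upstream. Its 5'-most start had 2.58 and 2.02 and was higher in both libraries.

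The phosphodiesterases divided. Pde4b had 1.20 and 1.18 at a start 502 kb downstream, where a form of 503 residues begins against 736 from upstream, and 0.768 and 0.981 at its 5'-most start. Pde4a had 0.957 and 0.981 against 2.31 and 2.06, Pde7b had 1.04 and 1.00 against 1.65 and 1.87, and Pde10a, abundant in striatum, had 1.19 and 1.15 against 1.54 and 1.55. The internal start was higher in Pde4b and lower in the other 3 genes, in both libraries. Among 21 phosphodiesterase genes (by symbol) with an internal start region 8 had a member locus. The families were chosen after the data were seen. The share was 5 of 17 among calcium channel subunits, 3 of 38 among potassium channels, 8 of 115 among Zfp zinc finger genes and 2 of 36 among collagens, with 10.3% over all genes.

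Cytoskeletal genes had a locus in 9 of 16, and none of their 14 loci was CpG-rich. Ank2, an ankyrin that ties membrane proteins to spectrin, had strengths of 2.73 and 2.40 at 90.4 kb against 1.40 and 0.963. Transcripts from this internal start encode up to 3900 residues, against 1219 for those that start farther upstream. A further Ank2 locus 501 kb downstream had 1.01 and 1.38, below the 5'-most value in replicate 1 and above it in replicate 2. Map2, a dendritic microtubule protein, had 2.04 and 1.90 against 1.76 and 1.50. Map4, its relative, had 1.71 and 1.80 against 4.56 and 4.29, so the order was opposite in the pair. Macf1 had 1.54 and 1.37 at the locus printed above, starting a form of 1358 residues against 7355, and no shared peak at its 5'-most start. In Dst, the related giant linker dystonin, the internal loci had 0.976 and 1.27 and 0.929 and 1.16, against 1.54 and 1.31.

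Genes of transcription and RNA factors had a locus in 8 of 28, with 14 loci. Nr3c1, the glucocorticoid receptor, held 3, of which the strongest had 3.05 and 2.90. All 3 used a start codon shared with upstream transcripts, the known arrangement of many leader exons before a common first coding exon. No shared peak lay at the 5'-most start of the gene. Tcf4, a bHLH factor, had 2.69 and 2.24 at 250 kb, with a form of 511 residues against 692 and no shared peak at its 5'-most start. Camta1, a calmodulin-binding transcription activator, held loci with 2.24 and 2.28 and with 2.61 and 1.99, both below the 6.41 and 5.88 of its 5'-most start. Rbfox1, a neuronal splicing factor, held 3, the strongest with 1.67 and 1.48 against 1.19 and 1.01. Rora, an orphan nuclear receptor, had 1.66 and 1.27 against 1.07 and 1.18, and Nfia had 0.919 and 1.04 against 3.67 and 2.74. Auts2, a neurodevelopmental gene, had 1.22 and 1.44 against 1.87 and 1.20, so its order differed between libraries.

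Of the list of ion channels, their regulators and ion transporters 2 of 13 had a locus (15.4%, against 10.3% of all genes). These were Atp2b2, a plasma membrane calcium pump, with 2.23 and 2.07, and Cacna1c, an L-type calcium channel, with 0.986 and 1.07, both without a shared 5'-most peak. Of imprinted genes 3 of 7 had one, and all 4 loci were CpG-rich and lacked a shared 5'-most peak. Gnas, which encodes the stimulatory G protein alpha subunit, held a pair of neighbouring loci with 1.72 and 1.47 and with 1.50 and 1.19, whose transcripts encode the 394-residue protein. Grb10, an inhibitor of insulin and growth factor signalling, had 1.51 and 1.67. Mest had 1.42 and 1.57, and 2 of its 3 basic transcripts start at the locus. An allele-specific state of these loci was not analysed here.

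**Figure D5:**
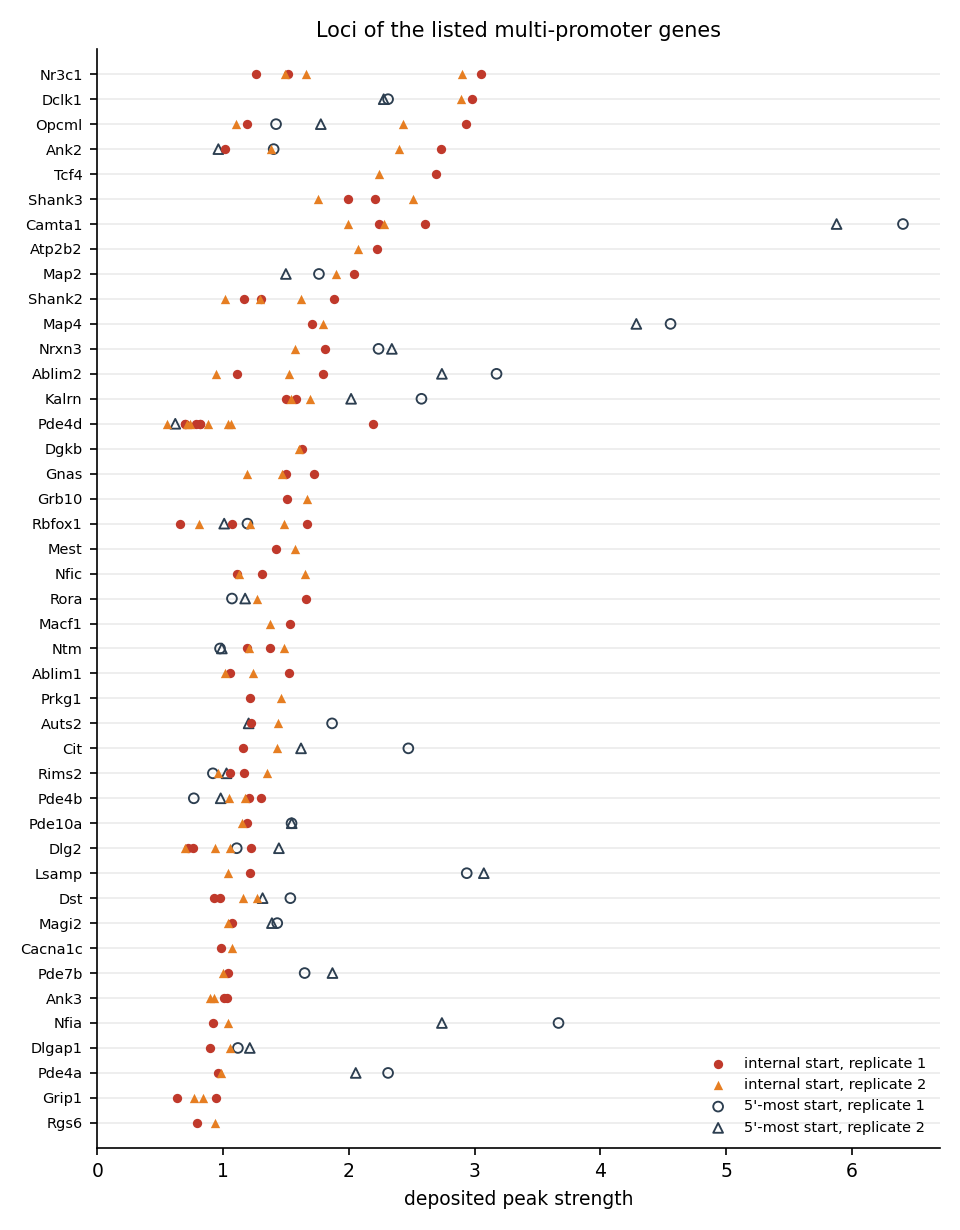
Deposited peak strength (horizontal axis) at each internal locus of the listed genes with a member, 1 gene left out (filled red circles, replicate 1, and orange triangles, replicate 2) and, where a shared peak lay there, at the 5'-most start (open symbols). A lone open symbol marks Pde4d, where the 5'-most value came from replicate 2 alone; Camta1, Map4, Nfia and Lsamp have 5'-most values far to the right of their internal values.

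The 58 listed genes without a member locus were not without accessible starts. In 30 of them a shared stricter peak lay at the 5'-most start, and in 21 the broader lists held a shared peak at an internal start. Zbtb20, a zinc finger repressor, had strengths of 7.17 and 6.55 at its 5'-most start and Kcnab2, a potassium channel beta subunit, had 7.89 and 8.01. Neither had an internal locus. Ntrk2, the BDNF receptor, had 3.56 and 3.06, and Mapt, the tau gene, had 3.26 and 2.68. Bdnf, whose many leader exons are a standard example of promoter choice, had no stricter shared peak at an internal or at the 5'-most start. Its strongest internal peak in the broader lists had 0.663 and 0.796.

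The tissue label was checked at starts of marker genes. Among autosomal markers of cortical neurons 3 of 6 had a shared peak at a start (Tbr1, Camk2a and Snap25). For astrocytes it was 1 of 4 (Gfap), for oligodendrocytes 0 of 3, for microglia 0 of 3, for endothelium 0 of 3 and for genes of absent tissues 0 of 5. In bulk tissue a locus open in few cells and one weakly open in many cannot be told apart.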

How the data were processed

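DNase-seq was measured in 2 libraries of mouse left cerebral cortex. Peak strength is the signal value in the peak lists the authors deposited, and the FDR (q-value) intervals and footprints are also as deposited. Peaks were called in each library alone, on mm10, per the authors' notes deposited with the files. For the aligner, caller, filters and signal normalization nothing was given in the sources used here, and the read depth behind each peak is unknown. Strengths under 3 are whole multiples of 0.00948 in replicate 1 and 0.00926 in replicate 2. The value column of the footprint files was constant and was not used.

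Starts, exons, start codons and basic tags came from GENCODE M21, sequence from GRCm38.p6, and RefSeq starts from a table of the same build. For each locus and library the highest peak strength was taken. A locus spans overlapping member peaks of both libraries. No p-value was computed. Named loci were the 10 with the best strength rank in their worse library, the 5 genes with most loci (the fifth tied with others at 3 loci), the 5 highest and 5 lowest differences to the 5'-most peak, the 5 strongest loci of genes without one, all loci of the 6 gene lists and those nearest the 10 kb limit. The members and lists were chosen with earlier results of these data known; families, basic-transcript classes and footprinted motif loci were chosen after values were seen. The 9 alternatives were a broader peak list, stronger peaks, 50% overlap, a 250 bp window, a 20 kb limit, basic transcripts, joined peaks and each replicate left out. With a replicate left out, all stricter peaks of the remaining library were used and no overlap between libraries was required. Python 3.11.15, NumPy 2.4.6, pandas 2.3.3, SciPy 1.17.1 and Matplotlib 3.10.9 were used, and the selection was tested on simulated data. Alleles of the hybrid were not separated.
 Some listed items are not reported here by name.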

Additional observations from a re-analysis of the deposited data

How the results depend on the processing

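The 919 loci became 1457 with the broader peak lists, 527 with peaks at or above the median strength and 409 with basic transcripts only. The other alternatives gave between 692 and 863. Leaving out a replicate gave 1163 to 1217, with no overlap between libraries required, and this holds for all values without a replicate below. The share of start regions with a peak was 7.43% (broader), 2.94% (stronger peaks), 3.87% (50% overlap), 4.03% (250 bp window) and 16.1% (basic), and 5.64% to 6.01% without a replicate. The within-gene log2 difference was -0.71 (broader), -0.49 (stronger peaks), -0.54 (50% overlap), -0.49 (20 kb limit), -0.32 (basic) and -0.64 to -0.49 without a replicate. Host genes without a 5'-most peak were 39.1% (broader), 62.2% (stronger peaks), 62.1% (50% overlap), 58.6% (250 bp), 45.3% (20 kb) and 45.5% to 45.6% without a replicate. The GC difference, internal minus 5'-most, was -4.74 percentage points as reported, and -6.55 (broader), -2.17 (stronger peaks), -4.50 (50% overlap), -4.09 (250 bp), -5.67 (20 kb), -3.43 (basic), -4.93 (peaks within 200 bp joined) and -5.45 to -5.25 without a replicate. The difference in the share of loci with a footprint was -1.53 points, and -3.34 (broader), -1.58 (stronger peaks), -1.05 (50% overlap), -3.34 (250 bp), -1.79 (20 kb), -1.58 (joined) and -3.38 to -2.32 without a replicate. No direction reversed under any of the 9 alternatives, and the causes of these shifts were not tested.

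No paired analysis was possible because there was 1 group. The depth is unknown, and 2 libraries of 1 donor label bound the error only loosely.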

Other observations

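Further members outside the named genes carried a footprinted motif. Slc1a2, which encodes the main astrocytic glutamate transporter, had a footprinted CTCF core at an internal start with strengths of 1.18 and 1.94 in replicates 1 and 2. Rgs20, a regulator of G protein signalling, had a footprinted NRF1 site at a locus with 2.41 and 2.66. Trak1, an adaptor for mitochondrial transport along axons, had a footprinted CRE at a locus with 1.79 and 1.73, and Spag9, a scaffold of JNK signalling, one with 3.30 and 2.23. Tmem219 had both a footprinted CRE and a footprinted NRF1 site at a locus with 3.57 and 3.25. These loci were picked after their values were seen.

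After the Pde4d locus, the members that differed most between replicates were Ido2, with 2.14 and 1.07, a second Stag1 locus, with 0.559 and 1.09, Senp7, with 0.796 and 1.54, and Zbtb6, with 1.96 and 1.04. The higher library was replicate 1 at Ido2 and Zbtb6 and replicate 2 at Stag1 and Senp7.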
